A study of Mus musculus with 6 samples.

Results

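Gata3, Satb1, Bcl11a, Bcl11b, Tcf7, Lef1, Ikzf1, Ikzf3, Tcf3 and Ighm are 10 genes best known from lymphocyte development, and they were followed here in mouse myeloid leukaemia blasts. They are 10 of the 35932 rows of a table of raw read counts per Ensembl gene, taken by matching each row's identifier to the gene's symbol in the GENCODE mouse M21 annotation. All 10 were found. They were chosen by their counts in these 6 libraries, with the contrast between the groups in view, so their levels and fold changes are given as a description, without a test.

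The 6 libraries came from bone marrow and are labelled Myeloid Leukemic Blasts of genotype MLL-AF9+, a fusion of the Mll gene with the AF9 partner that drives acute leukaemia. The sensitive group holds 3 libraries whose treatment label is "vehicule" (vehicle), and the resistant group holds 3 whose label is Cytarabin+Doxorubicin, the nucleoside analogue and the anthracycline of standard acute myeloid leukaemia chemotherapy. Resistance and exposure to the drugs go together in this design and cannot be told apart. Strain, age, dose, time of collection, how the fusion was introduced and whether libraries of a group came from separate animals or cultures are not stated in the labels. The p-values given therefore rest on the spread among the 6 libraries, and that spread may be technical.

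Lymphoid fate is set by a small network of DNA-binding proteins. E proteins such as E2A, encoded by Tcf3, pair with lineage-restricted partners and are held in check by ID proteins, while Ikaros family zinc fingers work with the NuRD chromatin complex. In the thymus, TCF1 (encoded by Tcf7), GATA3 and BCL11B act in turn to commit cells to the T lineage. SATB1 folds chromatin in thymocytes, BCL11A is needed for B cells, and Ighm encodes the constant region of the mu heavy chain, whose unrearranged locus is also transcribed in early progenitors.

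Library totals ran from 22206341 to 31856009 counts. Values are TMM-scaled CPM, each gene's counts relative to its library's total, and 3 counts in a library corresponded to 0.0945 to 0.137 CPM. Of 13414 genes with enough counts to test, 2475 were higher and 2785 lower in resistant libraries in edgeR's quasi-likelihood test at a Benjamini-Hochberg adjusted p under 0.05. These were 18.5% and 20.8% of tested genes, the shares to read beside the list counts below. Without sensitive library 2 the higher count was 1641.

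Markers of the labelled cell type were present. Mpo, the peroxidase of myeloid granules, stood at 1890 CPM in sensitive against 1500 CPM in resistant libraries, and the 14 blast markers summed to 6220 to 6790 CPM and 5510 to 6410 CPM, with 4 higher, 5 lower and 5 not passing. Cebpa, a driver of granulocyte fate, fell from 95.8 ± 6.10 to 25.3 ± 3.55 CPM (log2 fold change -1.93 ± 0.10, edgeR adjusted p = 3.15e-07). Most markers that define lymphocytes were close to 0. Cd3e, a chain of the T cell receptor complex, had 1, 0 and 0 counts in sensitive against 0, 1 and 0 in resistant libraries, and Ms4a1, which encodes the B cell antigen CD20, had 5, 1 and 4 counts against 0, 0 and 0. Of 21 T cell markers 17 were under 1 CPM in both groups, as were 17 of 21 B and plasma cell markers. The T cell list summed to 10.2 to 13.2 CPM in sensitive against 7.85 to 9.83 CPM in resistant libraries, which did not overlap. Of its 6 tested markers Cd8a fell (log2 fold change -0.66 ± 0.23, edgeR adjusted p = 0.0406) and 5 did not pass. The call of Cd8a was lost in DESeq2 and without any 1 sensitive library or resistant library 1 or 2. The B and plasma cell sum was 52.6 to 56.0 CPM against 57.4 to 64.3 CPM, and most of it was Cd79b, a signalling chain of the B cell receptor, at 38.9 ± 1.52 against 38.3 ± 1.61 CPM (mean ± SD, n = 3). Of its 8 tested markers Bank1, a B cell adaptor, rose from 7.44 ± 1.19 to 16.7 ± 2.18 CPM (edgeR adjusted p = 0.000111). Cd72 fell (log2 fold change -1.71 ± 0.24, edgeR adjusted p = 0.000398), as did Cd22 (-1.25 ± 0.43, edgeR adjusted p = 0.0388), whose call was lost in DESeq2 and without sensitive library 1 or 2 or resistant library 2 or 3, with adjusted p up to 0.147.

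The sums of myeloid maturation and of red cell markers lay further apart between the groups than those of T and B cell markers. The 19 markers of neutrophil and monocyte maturation summed to 1120 to 1260 CPM in sensitive against 531 to 581 CPM in resistant libraries, with 14 lower, 2 higher and 3 not passing in edgeR (13 lower and 1 higher without sensitive library 1). The 9 erythroid markers summed to 46.7 to 81.7 CPM against 1.10 to 2.96 CPM. Their part in the differences between the 10 genes was not tested. The NK and innate lymphoid sum was 50.7 to 67.8 CPM against 71.2 to 98.1 CPM, and most of it was Nkg7, a cytotoxic granule gene, the 1 marker of 4 tested that rose (log2 fold change 0.64 ± 0.13, edgeR adjusted p = 0.00357). The receptor Klrk1 (-2.03 ± 0.38, edgeR adjusted p = 0.00209) and the perforin gene Prf1 (-2.38 ± 0.50, edgeR adjusted p = 0.00393) fell. The dendritic cell sum was 125 to 131 CPM against 126 to 133 CPM and was mostly Runx2, at 122 and 127 CPM, which other cells also express. Of the list's markers whose groups did not overlap, Cox6a2, Cd74, Siglech, Klk1 and Pacsin1 were lower and Zbtb46 was higher. Cox6a2 fell (-2.72 ± 0.46, edgeR adjusted p = 0.00113), and so did Cd74 (-1.65 ± 0.57, edgeR adjusted p = 0.041). The call of Cd74 was lost without any 1 sensitive library or resistant library 1 or 3. Siglech, of plasmacytoid dendritic cells, had 19, 10 and 10 counts against 4, 0 and 0. Klk1 had 21, 23 and 10 against 0, 1 and 0, and Pacsin1 had 13, 6 and 7 against 3, 1 and 0. Zbtb46 rose from 0.294 ± 0.0563 to 0.570 ± 0.0831 CPM (0.96 ± 0.35, edgeR adjusted p = 0.0486). Of 6 tested, it was the 1 that rose, and 2 fell. Whichever single library was left out, 0 rose. Without sensitive library 1 or 2, 1 fell, and without resistant library 2, 4 fell. In bulk samples, fewer cells of a type and less RNA per cell cannot be told apart.

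**Figure D1:**
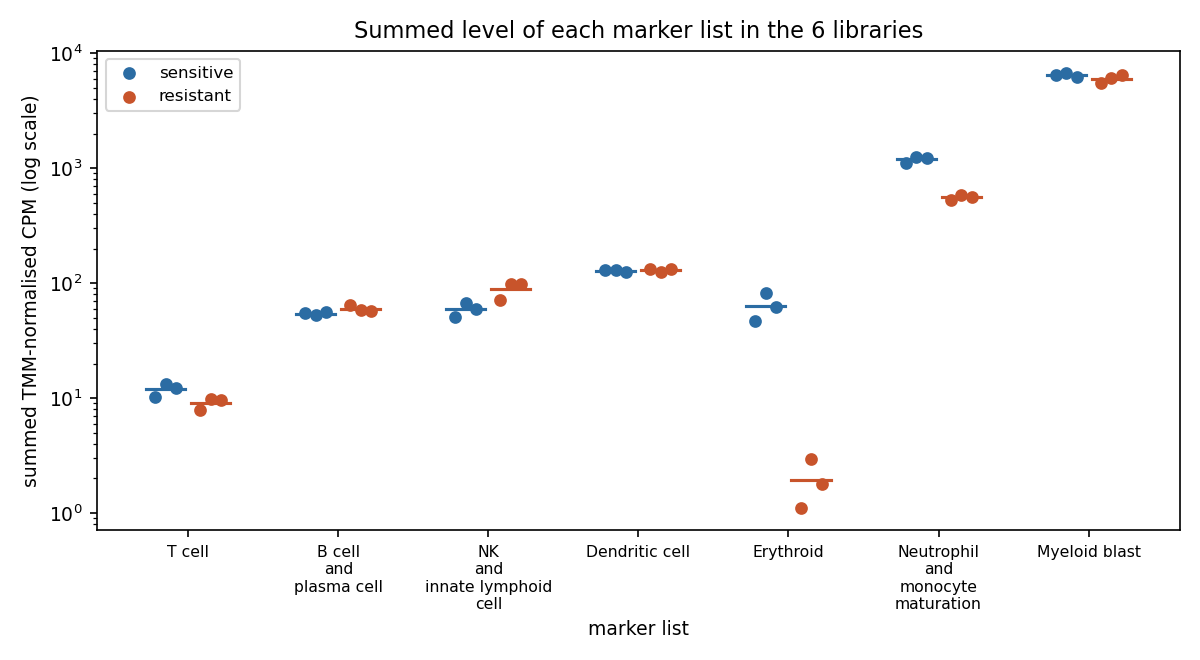
Summed level in CPM, on a log axis, of the markers of each cell type in each library, with sensitive and resistant libraries as separate points and lines at the group means. Erythroid markers lay between 46.7 and 81.7 CPM in sensitive against between 1.10 and 2.96 CPM in resistant libraries. The T cell sums lay between 10.2 and 13.2 CPM against between 7.85 and 9.83 CPM.

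The 10 genes did not move as a block. Gata3 and Ikzf3 were higher in resistant libraries, and Satb1, Bcl11b and Ighm were lower. Ikzf1, Tcf3 and Tcf7 overlapped between groups, and Bcl11a and Lef1 had too few counts for the filter on low counts. The threshold used for all genes marked the first 5 of these, beside 39.2% of all 13414 tested genes; since the genes were chosen on this contrast, that count is a description and no test of them. Libraries of the groups did not overlap for 6 of the 10 genes (these 5 and Bcl11a). Of the 8 past the filter it was these 5, beside 52.4% of all genes past it. The median log2 fold change of the 8 genes past the filter was -0.04, against -0.01 over all tested genes.

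**Figure D2:**
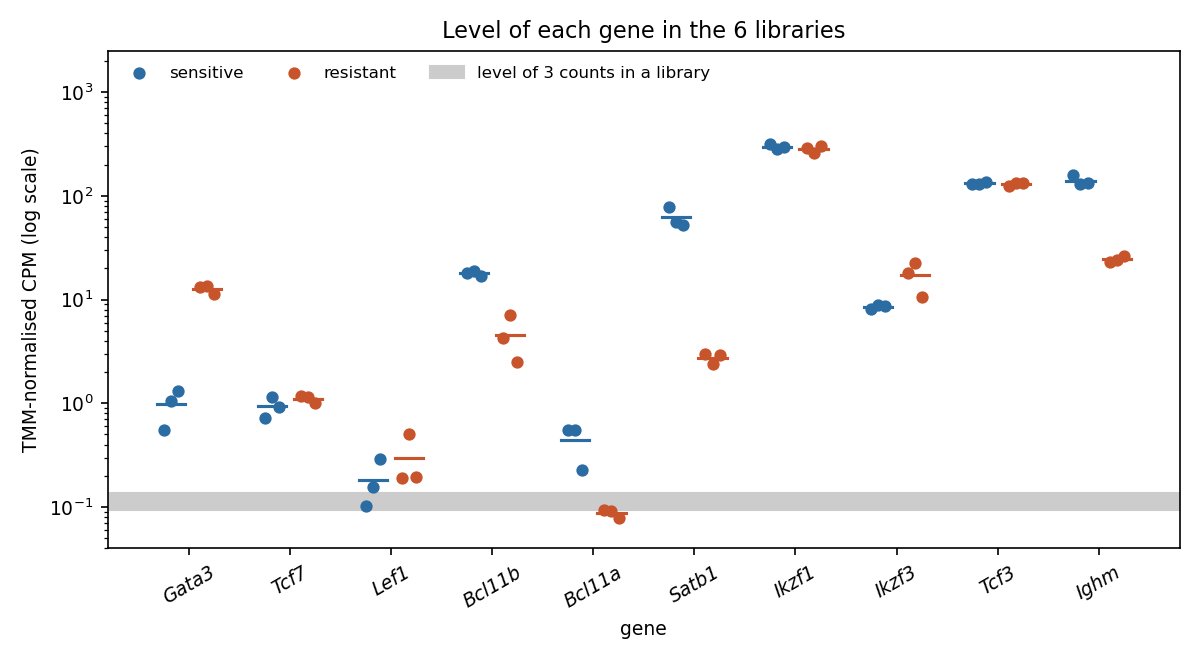
Level of each of the 10 genes in each library, in CPM on a log axis, with the group means as lines and a grey band at the level of 3 counts. Satb1, Bcl11b, Bcl11a and Ighm lie lower and Gata3 and Ikzf3 higher in all 3 resistant libraries, and Ikzf1, Tcf3, Tcf7 and Lef1 overlap between groups.

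Promoter sequence from RefSeq (assembly GRCm38.p6) was matched for 8 of the 10 genes, taking for each the most upstream start; Ikzf3 and Ighm had no entry. The windows of 3 genes are printed, those of the genes with the widest fold differences among the T-lineage factors and the chromatin organiser. Each runs 5′ to 3′ on the gene's strand from 250 bases before to 50 bases after the start, in lower case, with the searched motifs in capitals. The windows are chr2:9878551-9878850 (minus strand) for Gata3, chr17:51833241-51833540 (minus strand) for Satb1 and chr12:108003365-108003664 (minus strand) for Bcl11b.
Gata3: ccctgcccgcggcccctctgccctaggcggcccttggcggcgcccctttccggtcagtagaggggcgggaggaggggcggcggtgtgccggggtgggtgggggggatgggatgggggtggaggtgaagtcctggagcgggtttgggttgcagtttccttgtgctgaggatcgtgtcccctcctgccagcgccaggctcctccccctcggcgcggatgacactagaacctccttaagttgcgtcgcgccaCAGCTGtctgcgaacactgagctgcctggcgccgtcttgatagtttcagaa
Satb1: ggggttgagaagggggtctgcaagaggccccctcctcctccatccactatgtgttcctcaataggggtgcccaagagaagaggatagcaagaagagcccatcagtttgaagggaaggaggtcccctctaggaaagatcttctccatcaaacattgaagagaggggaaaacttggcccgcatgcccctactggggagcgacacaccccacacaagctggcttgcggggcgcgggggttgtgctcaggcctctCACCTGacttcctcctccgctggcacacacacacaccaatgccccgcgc
Bcl11b: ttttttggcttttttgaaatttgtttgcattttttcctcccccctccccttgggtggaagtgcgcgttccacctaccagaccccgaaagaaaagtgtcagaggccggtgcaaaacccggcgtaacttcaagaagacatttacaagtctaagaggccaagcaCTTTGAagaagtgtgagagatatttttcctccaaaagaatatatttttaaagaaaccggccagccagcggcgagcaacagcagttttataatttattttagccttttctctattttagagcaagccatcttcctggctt
The capitals mark an E-box (CANNTG), the letters bound by E proteins, in Gata3 and in Satb1, and a TCF/LEF match (CTTTGA) in Bcl11b. E-boxes were found on either strand in 6 of the 8 windows and in 72.3% of 32851 RefSeq windows of the same length. The TCF/LEF letters were in 1 of 8 and in 16.0% of all windows. GATA letters (GATAA) were in 1 of 8, the Tcf7 window, and in 25.4% of all, Ikaros letters (TGGGAA) in 2 of 8, Bcl11a and Lef1, and in 25.6%, and RUNX letters (TGTGGT) in 0 of 8 and in 16.8%. Of the 5 motifs searched, each printed window holds 1 match. A match is a description of these letters, not of a bound site. The windows differed in CpG content, with 52 CpG in Ikzf1, 45 in Tcf7, 22 in Gata3, 9 in Bcl11b and 8 in Satb1, beside a median of 7 over all windows.

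Gata3, on chromosome 2, encodes the zinc finger factor required for T cell commitment and for type 2 helper cells. It stood at 0.550, 1.06 and 1.32 CPM in the sensitive libraries and at 13.2, 13.6 and 11.2 CPM in the resistant libraries. Every resistant library was far above every sensitive one, and the groups did not overlap. The means were 0.975 ± 0.389 and 12.7 ± 1.28 CPM (SD, n = 3), a 13-fold difference and a log2 fold change of 3.69 ± 0.23 (SE), the 17th highest of all tested genes. The underlying counts were 16, 27 and 41 against 419, 298 and 287.

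Among the haematopoietic GATA factors, Gata3 made up 2.14 ± 0.812% of the summed level per kilobase of exon in sensitive libraries and 20.7 ± 1.43% in resistant libraries. Gata2, the factor of stem and progenitor cells, remained the main one, at 95.9 ± 0.763% and 76.3 ± 2.42%. Its CPM was 59 ± 1.70 and 63.0 ± 0.934, a log2 fold change of 0.09 ± 0.06 that did not pass (edgeR adjusted p = 0.219). Gata1, the erythroid and megakaryocyte factor, was at 0.551 ± 0.0375 and 1.10 ± 0.554 CPM and did not pass either (log2 fold change 1.02 ± 0.37, edgeR adjusted p = 0.0502); over the alternative settings its adjusted p ran from 0.0285 to 0.283. A gene annotated as protein-coding that overlaps Gata3 on the same strand, 9230102O04Rik, was at 0.275 ± 0.127 and 5.37 ± 0.692 CPM. Reads shared by the overlapping genes cannot be told apart from these counts.

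**Figure D3:**
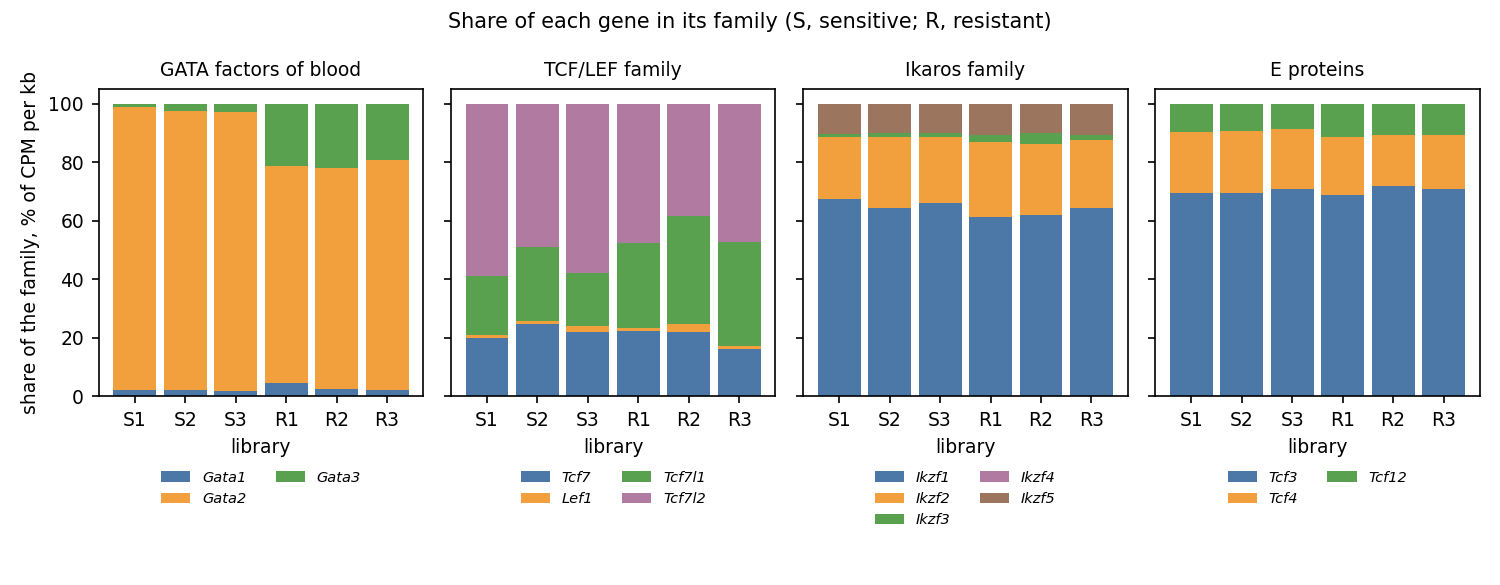
Share of each gene family's summed CPM per kilobase of exon held by each gene, in percent, in each library. Gata3 goes from 2.14% to 20.7% of the GATA genes, while Ikzf1 and Tcf3 keep most of their families in both groups.

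The other genes of the GATA and type 2 list gave no common direction. Of its 18 genes 8 had enough counts to test, of which 1 was higher, 3 lower and 4 did not pass, with a median log2 fold change of -0.57. Il4 and Il13, the type 2 cytokines, had 0 counts in all 6 libraries. The gene with the smallest adjusted p was Cpa3, a mast cell protease, at 40.5, 25.1 and 26.2 CPM in sensitive against 7.69, 6.01 and 6.94 CPM in resistant libraries, which fell (log2 fold change -2.14 ± 0.18, edgeR adjusted p = 1.25e-05). The gene that rose was Zfpm1, which encodes the GATA cofactor FOG1, from 13 ± 1.60 to 17.0 ± 0.332 CPM (log2 fold change 0.38 ± 0.10, edgeR adjusted p = 0.0155). Without sensitive library 2 its adjusted p was 0.0793. The count of falling genes was 1 without sensitive library 2, without resistant library 2 and in DESeq2.

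Tcf7, on chromosome 11, encodes TCF1, the Notch-induced factor that opens the T cell programme. It was low and alike in range in both groups, at 0.723, 1.14 and 0.930 CPM in sensitive against 1.17, 1.14 and 1.01 CPM in resistant libraries. The groups overlapped, and the log2 fold change was 0.26 ± 0.27 (SE). Lef1, on chromosome 3, encodes its close relative and had 3, 4 and 9 counts in sensitive against 6, 11 and 5 counts in resistant libraries. The sums of 16 and 22 counts give a ratio of 1.49 with a 95% interval of 0.745 to 3.03 (exact conditional, over summed reads, which covers counting error only), and the ranges of the libraries overlapped.

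Tcf7l2 was the main gene of the TCF/LEF family. It held 55.2% of the family's summed level per kilobase in sensitive and 44.4% in resistant libraries, at 7.60 and 8.32 CPM (log2 fold change 0.13 ± 0.15, edgeR adjusted p = 0.509). Tcf7l1, which mostly represses Wnt targets, rose from 1.33 ± 0.377 to 2.83 ± 0.544 CPM (log2 fold change 1.09 ± 0.26, edgeR adjusted p = 0.00713). The libraries did not overlap, at 1.10 to 1.76 CPM against 2.27 to 3.35 CPM. Of 19 genes listed as TCF/LEF partners and feedback targets, 16 were tested, 3 rose, 7 fell and 6 did not pass, with a median of -0.18. Tle3, a Groucho corepressor that binds TCF proteins, fell from 113 ± 2.80 to 61.2 ± 6.37 CPM (log2 fold change -0.89 ± 0.07, edgeR adjusted p = 1.11e-05), whereas its relative Tle1 rose from 14.9 ± 0.661 to 21.9 ± 1.72 CPM (0.56 ± 0.09, edgeR adjusted p = 0.000897). Ctnnbip1, an inhibitor of beta-catenin binding, fell from 3.65 ± 0.0929 to 1.86 ± 0.136 CPM (-0.96 ± 0.17, edgeR adjusted p = 0.00151).

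Bcl11b, on chromosome 12, encodes the zinc finger repressor that closes the alternative fates of early T cells. Its levels were 17.9, 19.0 and 16.8 CPM in sensitive against 4.25, 7.05 and 2.50 CPM in resistant libraries. All resistant libraries were below all sensitive ones. The means of 17.9 ± 1.10 and 4.6 ± 2.30 CPM (SD, n = 3) give a 3.88-fold lower level and a log2 fold change of -1.97 ± 0.26 (SE). The resistant libraries also spread more, with the highest 2.83-fold above the lowest, beside 1.13-fold among sensitive libraries.

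Bcl11a, its paralog on chromosome 11, was near the lower limit of the counts, at 16, 14 and 7 in sensitive and 3, 2 and 2 in resistant libraries. The groups did not overlap. The sums of 37 and 7 counts correspond to a ratio of sensitive over resistant of 4.89 with a 95% interval of 2.15 to 13 (exact conditional, counting error only). On the scale of CPM per kilobase, Bcl11b made up 98.5 ± 0.574% of the pair in sensitive and 98.7 ± 0.550% in resistant libraries.

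Satb1, on chromosome 17, had the widest fold difference of the 10 genes. It stood at 78.7, 56.0 and 52.5 CPM in sensitive libraries and at 2.96, 2.41 and 2.89 CPM in resistant libraries. The groups were far apart, with all resistant libraries low. The means were 62.4 ± 14.2 and 2.75 ± 0.298 CPM (SD, n = 3), a 22.7-fold lower level and a log2 fold change of -4.49 ± 0.18 (SE), the 34th lowest of all tested genes.

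**Figure D4:**
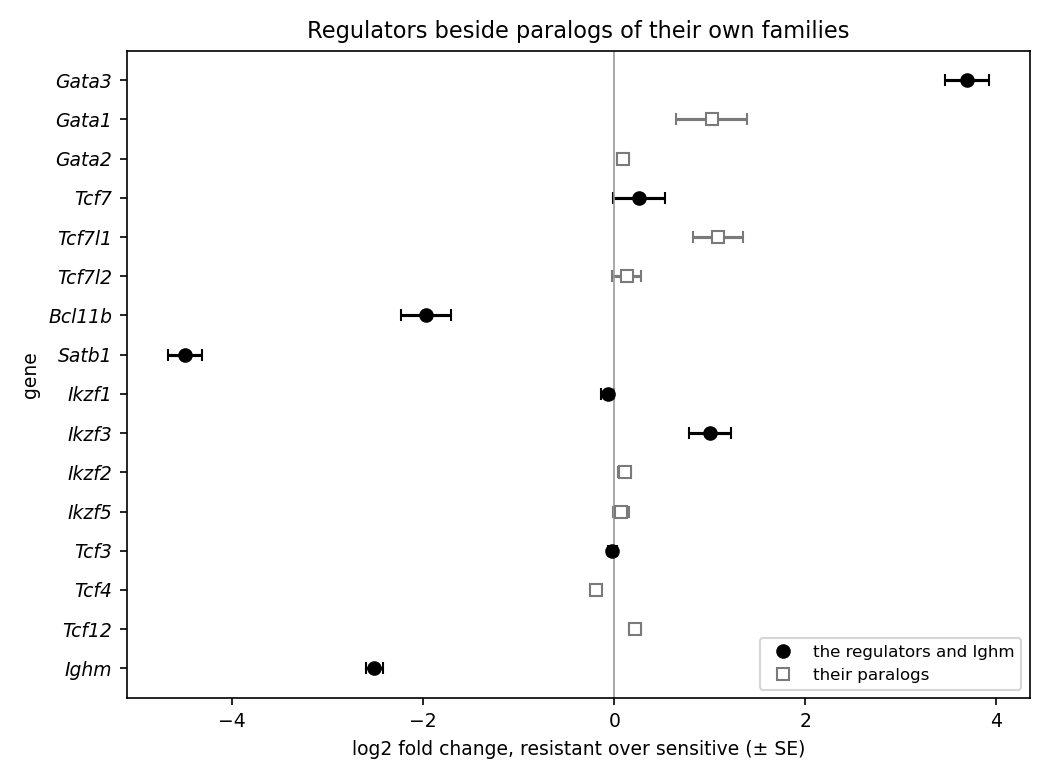
Log2 fold change, resistant over sensitive, of the 8 genes past the filter (filled circles) beside other genes of their families (open squares), with bars for the SE. Gata3 at 3.69 and Gata2 at 0.09 lie far apart, Satb1 at -4.49 lies lowest, and the Ikaros and E protein genes other than Ikzf3 lie close to 0.

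The tested partners of SATB1 and BCL11 proteins, among them SWI/SNF subunits, differed by small folds. Of 21 listed genes 17 were tested, 6 rose, 1 fell and 10 did not pass, with a median of 0.12. Of all tested genes 18.5% rose and 20.8% fell. Without sensitive library 2 the rising genes numbered 2, and without sensitive library 3 they numbered 3. Smarca2, an ATPase of the complex, rose from 73.3 ± 2.61 to 95.1 ± 5.37 CPM (log2 fold change 0.38 ± 0.06, edgeR adjusted p = 0.00089). Smarcc1 rose (0.25 ± 0.06, edgeR adjusted p = 0.00685) while its paralog Smarcc2 fell (-0.24 ± 0.05, edgeR adjusted p = 0.00507).

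Ikzf1, on chromosome 11, encodes Ikaros and was among the most abundant of the 10 genes in both groups. Its levels were 314, 283 and 297 CPM in sensitive against 289, 260 and 303 CPM in resistant libraries. The ranges overlapped, with sensitive library 1 above and resistant library 2 below the other group's range, and the log2 fold change was -0.07 ± 0.07 (SE). Ikzf3, also on chromosome 11, encodes Aiolos, which acts later in B cells. It was at 8.12, 8.90 and 8.60 CPM in sensitive against 18.1, 22.5 and 10.6 CPM in resistant libraries, with no overlap. The means of 8.54 ± 0.394 and 17.1 ± 6.03 CPM (SD, n = 3) give a log2 fold change of 1.0 ± 0.22 (SE). Its resistant libraries spread 2.12-fold, beside 1.10-fold in sensitive libraries. The order of the resistant libraries was the one seen for Bcl11b, with library 2 highest and library 3 lowest. Gata3 and the E protein partner Lyl1 had that order too, and Satb1 and Ighm did not. The share of all genes with this order was not counted.

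Within the family Ikzf3 stayed minor. Ikzf1 held 65.9 ± 1.67% of the summed CPM per kilobase in sensitive and 62.5 ± 1.66% in resistant libraries, and Ikzf3 held 1.25 ± 0.0908% and 2.52 ± 1.03%. Ikzf2, which encodes Helios, was at 207 ± 10.4 and 224 ± 19.5 CPM (log2 fold change 0.11 ± 0.07, edgeR adjusted p = 0.227). Ikzf5 did not pass either, at 0.07 ± 0.08 (edgeR adjusted p = 0.546), and Ikzf4 was too low to test. Of 20 Ikaros and NuRD genes 19 were tested, 2 rose, 2 fell and 15 did not pass, with a median of 0.07. Rbbp7, a histone-binding subunit of NuRD, rose from 272 to 343 CPM (0.33 ± 0.06, edgeR adjusted p = 0.00116). The other calls of the list did not hold throughout: leaving out sensitive library 2, sensitive library 3 or resistant library 2 left 0 genes falling, and without sensitive library 2 the count of rising genes was 1.

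Tcf3, on chromosome 10, had the smallest log2 difference of the 10 genes. The levels were 130, 129 and 137 CPM in sensitive against 125, 134 and 132 CPM in resistant libraries, which overlapped, with a log2 fold change of -0.02 ± 0.05 (SE). Tcf3 made up 70.0 ± 0.815% and 70.5 ± 1.5% of the E protein sum per kilobase. Tcf4, encoding E2-2, fell slightly from 266 ± 0.104 to 234 ± 10.9 CPM (-0.19 ± 0.05, edgeR adjusted p = 0.0167), and Tcf12, encoding HEB, rose slightly from 66.4 ± 2.33 to 77.3 ± 1.67 CPM (0.22 ± 0.06, edgeR adjusted p = 0.0114). Both calls were lost without sensitive library 2 or sensitive library 3, and that of Tcf4 also without resistant library 2, with adjusted p up to 0.0673 for Tcf4 and 0.0618 for Tcf12.

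Inhibitors and partners of E proteins did not move together. Id1, the main ID gene, was at 20.3 ± 1.23 and 20.4 ± 1.01 CPM and did not pass (log2 fold change 0.01 ± 0.09, edgeR adjusted p = 0.959). Id2, an ID protein that blocks their DNA binding, fell from 8.67, 9.06 and 11.7 CPM to 2.93, 2.32 and 2.85 CPM (log2 fold change -1.85 ± 0.16, edgeR adjusted p = 1.48e-05). Its share of the ID genes' summed level per kilobase was 18.6 ± 2.03% in sensitive and 5.90 ± 0.511% in resistant libraries, and Id3 had 0 counts in every library. The summed E protein level was 2.17 ± 0.115 times the summed ID level in sensitive and 2.45 ± 0.159 times in resistant libraries. Lyl1, a partner of E proteins in blood progenitors, fell from 252 ± 11.6 to 183 ± 26.8 CPM (-0.47 ± 0.09, edgeR adjusted p = 0.00245). Of the 12 genes listed, 9 were tested, 1 rose, 4 fell and 4 did not pass, with a median of -0.19. Tcf12 was the gene that rose.

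Ighm, on chromosome 12, encodes the mu heavy chain and was, per kilobase, the most abundant of the 10 genes in sensitive libraries. It stood at 158, 130 and 133 CPM in sensitive against at 23.2, 24.3 and 26.3 CPM in resistant libraries. The groups were wide apart and each was tight. The means of 140 ± 15.4 and 24.6 ± 1.55 CPM (SD, n = 3) give a 5.71-fold lower level and a log2 fold change of -2.51 ± 0.09 (SE).

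Counts of other antibody genes were looked up after its values were seen. Segments missing from the table could not be counted, so whether the locus was rearranged was not tested. The 23 annotated heavy chain variable genes in the table had 19 counts in all over the sensitive and 18 over the resistant libraries, and the 4 heavy chain joining genes had 0 in every library. Igkc, the kappa constant region, was at 0.503 and 0.415 CPM. Among the B cell markers given above, Ms4a1, Cd72 and Cd22 lay in the same direction as Ighm, with Ms4a1 near the limit of 3 counts. Cd79b was alike in both groups, and Bank1 went the other way. A gene model beside Ighm on the same strand, Gm25747, fell from 1.68 ± 0.0704 to 0.235 ± 0.0667 CPM (-2.85 ± 0.31, edgeR adjusted p = 6.3e-05).

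By level per kilobase of exon, the sensitive libraries ran from Ighm at 74.4 ± 8.14 CPM per kilobase through Ikzf1 at 51.6 ± 2.69 and Tcf3 at 32.7 ± 1.04 to Satb1 at 3.28 ± 0.746. Bcl11b at 2.20 ± 0.136, Ikzf3 at 0.975 ± 0.0451, Tcf7 at 0.354 ± 0.0790 and Gata3 at 0.245 ± 0.0978 followed, the last pair overlapping. Bcl11a at 0.0335 ± 0.0143 and Lef1 at 0.0208 ± 0.0109 came last and overlapped too. In resistant libraries Ikzf1 at 49.2 ± 3.79 and Tcf3 at 32.3 ± 1.13 led, then Ighm at 13 ± 0.821 and Gata3 at 3.18 ± 0.321. Gata3 thus stood above Ikzf3 (1.95 ± 0.688), Bcl11b (0.567 ± 0.283) and Tcf7 (0.421 ± 0.0308), and Satb1 at 0.145 ± 0.0157 was below Tcf7. Bcl11b and Tcf7 overlapped there, and no other neighbours in that order did.

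Other lymphoid regulators were read from lists of the T and B lineages. Of 26 T-lineage regulators 15 were tested, 6 fell, 0 rose and 9 did not pass, with a median log2 fold change of -0.15; at an unadjusted edgeR p under 0.05, 1 was higher, and DESeq2 and limma-voom called 0 higher. Without resistant library 1, 1 rose. Of all tested genes 20.8% fell and 18.5% rose. Ets1, a factor of T and NK cell development, fell from 56.9, 60.2 and 53.9 CPM to 9.52, 12.8 and 6.12 CPM (-2.60 ± 0.19, edgeR adjusted p = 3.78e-06), and its resistant libraries had the order of Bcl11b and Ikzf3. Notch1, the receptor that starts T cell fate, fell from 108 ± 5.54 to 67.5 ± 6.74 CPM (-0.68 ± 0.08, edgeR adjusted p = 8.09e-05), and Zbtb7b, which directs CD4 T cell fate, fell from 70.7 ± 2.63 to 44.0 ± 9.34 CPM (-0.69 ± 0.12, edgeR adjusted p = 0.00168).

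Of 21 B-lineage regulators 13 were tested, 3 fell, 0 rose and 10 did not pass, with a median of -0.16; the count of higher genes was 0 also at an unadjusted edgeR p under 0.05, in DESeq2 and in limma-voom. Over all tested genes the shares were 20.8% lower and 18.5% higher. Rag2, a subunit of the recombinase that cuts receptor genes, fell from 5.09, 5.22 and 4.43 CPM to 0.504, 0.865 and 0.273 CPM (-3.19 ± 0.30, edgeR adjusted p = 2.22e-05). Its partner Rag1 had 10, 12 and 2 counts in sensitive against 2, 0 and 0 in resistant libraries. Irf8, a factor of monocytes, dendritic cells and B cells, fell from 82.8 ± 11.7 to 38.5 ± 4.10 CPM (-1.10 ± 0.11, edgeR adjusted p = 3.02e-05), and the cytokine receptor Flt3 fell from 102 ± 14.1 to 56.1 ± 10.1 CPM (-0.86 ± 0.13, edgeR adjusted p = 0.000488). Pax5, the B cell identity factor, had 2, 1 and 2 counts against 0, 0 and 0.

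Signalling genes downstream of the B cell receptor, many of which myeloid cells also use, fell or did not pass. Of 21 listed 18 were tested, 7 fell, 0 rose and 11 did not pass, with a median of -0.17, and 0 were higher at an unadjusted edgeR p under 0.05, in DESeq2 and in limma-voom. Without sensitive library 2, 4 fell. The shares of all tested genes were 18.5% higher and 20.8% lower. Pik3ap1, an adaptor to PI3 kinase, fell from 127 ± 5.28 to 74.7 ± 3.05 CPM (-0.77 ± 0.06, edgeR adjusted p = 4.89e-06), and the kinase Lyn fell from 103 to 83.7 CPM (-0.30 ± 0.06, edgeR adjusted p = 0.00199).

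Over all 157 genes of these lists 114 were tested, 13 were higher (11.4%, beside 18.5% of all tested genes) and 33 lower (28.9%, beside 20.8%), so that 40.4% passed beside 39.2% of all. Without sensitive library 2 the counts were 6 higher and 22 lower. The median of -0.10 lies beside -0.01 over all tested genes. The lists were chosen with earlier results of these data known.

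**Figure D5:**
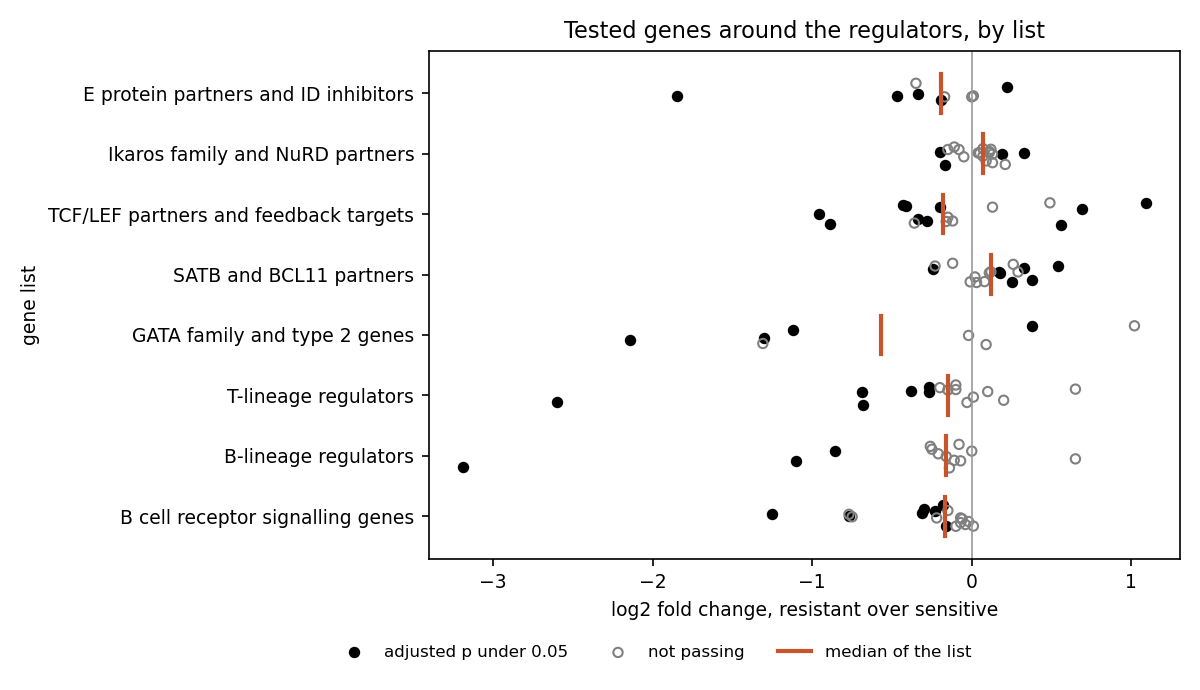
Log2 fold change, resistant over sensitive, of the tested genes in each list, 1 point per gene, with genes past the adjusted p threshold filled and the list's median as a line. List medians lie between -0.57 and 0.12, and Rag2 at -3.19 and Ets1 at -2.60 lie lowest among the regulators of the B and T lineages.

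The nearest annotated gene on each side of each of the 10, overlapping genes left out, was read to see whether differences extended to neighbours. Of 20 neighbours 9 were tested, 2 rose, 3 fell and 4 did not pass, beside 18.5% higher and 20.8% lower of all tested genes. Both neighbours of Gata3 had 0 counts in every library. Genes overlapping Gata3 were higher in all resistant libraries: 9230102O04Rik, given above, and on the opposite strand Gm13256 and 4930412O13Rik. Gm13256 had 0, 0 and 0 counts in sensitive against 4, 2 and 7 in resistant libraries, and 4930412O13Rik had 0, 0 and 1 against 6, 9 and 10. Genes lying over Tcf7, Bcl11a, Ikzf1 and Ikzf3 had values that overlapped between groups. Both neighbours of Ikzf3 had too few counts to test but were higher in all resistant libraries. Grb7 had 4, 2 and 1 counts in sensitive against 13, 8 and 8 in resistant libraries. Zpbp2 had 1, 2 and 1 against 10, 3 and 3. The fall of Gm25747 beside Ighm is given above. Next to Satb1, Tbc1d5, a regulator of membrane traffic, fell from 78.5 ± 5.62 to 62.3 ± 2.70 CPM (-0.33 ± 0.07, edgeR adjusted p = 0.00334), a far smaller difference than that of Satb1. Next to Bcl11b, Setd3, a histidine methyltransferase of actin, gave 0.03 and did not pass. Next to Lef1, Hadh, a mitochondrial enzyme of fatty acid oxidation, rose from 58.3 ± 1.24 to 78.4 ± 6.10 CPM (0.43 ± 0.07, edgeR adjusted p = 0.000724).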

How the data were processed

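RNA sequencing of 6 libraries, 3 per group, was analysed from a count table. The authors deposited raw counts per Ensembl gene as whole numbers; per the submitters' processing notes, TopHat2, RSEM and the mouse build mm9 were used, without versions or roles. Not given in the sources used here are the annotation release, the strand setting, how shared reads were counted and whether RSEM estimates were rounded, so overlapping, antisense and near-identical genes are uncertain. Per the labels' protocols, total RNA was made into TruSeq libraries. All 6 columns matched a sample by title, and 0 columns were left unused.

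Symbols, neighbours and exon lengths came from GENCODE M21, a later build than the authors'; 31636 of 35932 identifiers matched. Lengths are the union of a gene's exons. Genes at 0 in every library numbered 13569. Counts were filtered with filterByExpr, scaled by TMM (factors 0.9784 to 1.0164) and tested with edgeR 4.0.16 (R 4.3.3) glmQLFit and glmQLFTest with a group term only; p-values of the 13414 genes kept were adjusted by Benjamini-Hochberg and called under 0.05. Log2 fold changes are resistant over sensitive. Their SE is the absolute log2 fold change divided by the square root of edgeR's F statistic. Intervals and floors (3 counts) cover counting error only. The procedure was tested on simulated data. Libraries of the same group differed beyond sampling noise (chi-square 3.91 to 13.59 per degree of freedom, genes averaging at least 20 counts), so none was a copy of another.

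The 10 genes and all lists were chosen with earlier results of these data known. Genes named from a list are up to 4 with the smallest adjusted p past the threshold, beside defining markers, family paralogs and nearest neighbours. Named after their values were seen were 9230102O04Rik, Gm13256, 4930412O13Rik, Il4, Il13, Id3, Rag1, Pax5, Igkc, Mpo, Id1, Siglech, Klk1, Pacsin1, Runx2 and the antibody segments. The alternatives, 14 in all, were RLE, upper-quartile and no scaling factors, DESeq2 1.42.0, limma-voom 3.58.1, other low-count filters, a replicate block and leaving out each library. Ighd, Iglc1, Trdc and Ahsp were not analysed here. A few marker and paralog results are not reported here.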

Additional observations from a re-analysis of the deposited data

How the results depend on the processing

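Of the 70 recomputed counts of genes past the threshold, 68 were within 1.5 times the reported count. Without sensitive replicate 2, the genes higher numbered 1641 and the list genes higher 6. Leaving out each library gave 1641 to 2521 genes higher and 2015 to 2711 lower, 6 to 15 list genes higher and 22 to 30 lower, and 4 to 5 neighbours past the threshold; fewer libraries enter each fit. For the 10 genes, 119 of 124 recomputed log2 fold changes were marked as unchanged, and the other 5, marked as moved, were for Lef1 (3), Tcf7 (1) and Bcl11a (1). The mark did not follow the SE. Tcf7 at 0.42 without sensitive replicate 2 was marked as moved from 0.26 ± 0.27. Bcl11b at -2.38 without resistant replicate 2, from -1.97 ± 0.26, was not. Log2 fold changes ran from 3.40 to 3.99 for Gata3, -4.60 to -4.29 for Satb1, -2.38 to -1.68 for Bcl11b, -2.57 to -2.42 for Ighm and 0.76 to 1.25 for Ikzf3 over all alternatives, and from -0.05 to 0.01 for Tcf3. Among the other named genes, 70 of 930 recomputed values lost their call and 3 gained one. Among genes that did not pass, the sign reversed for Cd79a at 0.26 without sensitive replicate 3, 0.08 without resistant replicate 1 and 0.15 without resistant replicate 2 (range over left-out libraries -0.36 to 0.26), for Cd79b at 0.01 without resistant replicate 3 (-0.06 to 0.01) and for Tcf7l2 at -0.0 without resistant replicate 3 (-0.0 to 0.27); the cause was not tested. No scaling moved the median over all genes by more than 0.034 on the log2 scale.

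Libraries with the same replicate number did not deviate together (correlations 0.0368, -0.0056 and -0.0863), and not every library correlated best with its own number. With 3 libraries per group this cannot exclude a pairing, and the labels state none. With a replicate block, 2497 genes were higher and 2824 lower, 14 list genes were higher and 35 lower, and 5 neighbours passed. The depth limits Lef1 and Bcl11a, with 38 and 44 counts in all over the 6 libraries.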
